A study of Homo sapiens with 4 samples.

Results

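The serine, glycine and one-carbon enzymes are 9 genes: *PHGDH*, *PSAT1*, *PSPH*, *SHMT1*, *SHMT2*, *MTHFD1*, *MTHFD2*, *MTHFD1L* and *ALDH1L2*. They were taken by symbol from the 16490 genes of the MV4-11 expression table, and the FPKM values (read fragments scaled to transcript length and to the mapped reads of the library) of all RefSeq transcripts of a gene were added up in each library. All 9 had a mean of at least 0.5 FPKM and were among the 12142 genes tested. MV4-11 is a human AML cell line with a *KMT2A* fusion and mutant *FLT3*. The 4 RNA-seq libraries were 2 of sh-NC control cells, which keep CEBPG, and 2 of cells carrying the *CEBPG* hairpin sh-CEBPG#3. Both groups were stable lines made with a puromycin-selected lentiviral vector. The libraries used here cover a single hairpin in a single cell line. The sources do not say whether replicate libraries stem from independent infections, so p-values measure only the spread between these libraries. The question addressed is how the levels of these enzyme mRNAs changed upon *CEBPG* knockdown.

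Serine is built from phosphoglycerate, an intermediate of glycolysis. PHGDH oxidizes it, PSAT1 adds the amino group and PSPH removes the phosphate. The SHMT enzymes then pass a carbon unit from serine to tetrahydrofolate and release glycine. SHMT1 and the trifunctional MTHFD1 act mainly in the cytosol, where the unit is spent on thymidylate, purines and methionine. SHMT2, MTHFD2, MTHFD1L and ALDH1L2 carry the corresponding reactions in mitochondria, which send formate back to the cytosol. In many cell types the serine pathway and the mitochondrial enzymes are switched on by the transcription factor ATF4, and CEBPG is a known dimer partner of ATF4.

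The 2 cytosolic enzymes fell clearly upon *CEBPG* knockdown, and the 4 mitochondrial enzymes had smaller differences in both directions. *SHMT1* was at 45.0% and *MTHFD1* at 66.4% of the sh-NC mean. *PSAT1* (80.6%) and *ALDH1L2* (81.9%) also fell, and *MTHFD2* rose to 120.1%. *PHGDH*, *PSPH*, *SHMT2* and *MTHFD1L* did not pass the test. Thus 4 of 9 fell and 1 rose at an adjusted p under 0.05 (limma over all genes tested, Benjamini-Hochberg adjustment). Of all genes tested, 42.2% passed, with 23.8% lower and 18.5% higher. The share of members that passed in either direction (5 of 9) is therefore near the background of this comparison. *SHMT1* was the only member with an absolute log2 fold change above 1 (1 of 9), which together with an unadjusted p under 0.05 held for 3.41% of all genes tested (1.05% lower and 2.36% higher). The median log2 fold change was -0.08 over the members and -0.04 over all genes tested.

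*CEBPG* itself had 30.4 and 33.6 FPKM in sh-NC cells and 19.2 and 17.1 FPKM in sh-CEBPG#3 cells, which is 56.8% of the control mean. The FPKM totals lay between 364353 and 389766 per library. The depth in reads is unknown, because FPKM values carry no counts. Hematopoietic genes marked all 4 libraries, with *SPI1* (a myeloid transcription factor) between 114 and 157 FPKM and *CD33* between 26.8 and 37.2 FPKM. Of 11 markers of other cell types, 8 were not listed with a value, *COL1A1* was at most at 0.0781 FPKM, and *KRT18* was at 8.57 to 10.6 FPKM. *PECAM1*, an endothelial marker also found on myeloid cells, rose with the knockdown, from 18.5 and 21.8 FPKM to 43.4 and 40.8 FPKM (log2 fold change 1.03, adjusted p = 1.65e-05 in limma). The summed level of 11 hematopoietic and myeloid markers went from 904 and 983 FPKM in sh-NC cells to 3565 and 3390.5 FPKM in sh-CEBPG#3 cells, mostly through *LYZ* (lysozyme). Of the 10 tested, 5 rose (*LYZ*, *CSF1R*, *MPO*, *CD33* and *SPI1*), while *MEIS1* (-0.87) and *HOXA9* (-0.36), transcription factors of immature cells, fell and *FLT3*, *PTPRC* and *ITGAM* did not pass the test. The part of these marker changes in the values below was not tested, and in bulk libraries fewer cells that express a gene and less RNA per cell cannot be told apart.

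With all transcripts counted, the enzymes spanned more than an order of magnitude per unit of transcript length in sh-NC cells. *SHMT2* was highest with a mean of 232 FPKM. *MTHFD2* (117 FPKM) and *PHGDH* (110.4 FPKM) followed and overlapped between libraries. *PSAT1* (71.4 FPKM), *MTHFD1L* (45.8 FPKM) and *MTHFD1* (41.4 FPKM) came next without overlap. *ALDH1L2* (19.8 FPKM) and *PSPH* (18.3 FPKM) overlapped, and *SHMT1* was lowest with 13.7 FPKM. *SHMT2* exceeded 98.5% and *SHMT1* 67.4% of the genes tested in the control level. The order in sh-CEBPG#3 cells differed in that *PSPH* stood above *ALDH1L2*, and no neighbours overlapped there. The rank of *SHMT2* and the span of more than an order of magnitude depend on its non-coding transcripts. From protein-coding transcripts alone, a calculation added after the data had been seen, *PHGDH* (110.4 FPKM) was highest in sh-NC cells, and *MTHFD2* (79.6 FPKM), *SHMT2* (77.8 FPKM) and *PSAT1* (71.4 FPKM) followed.

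**Figure D1:**
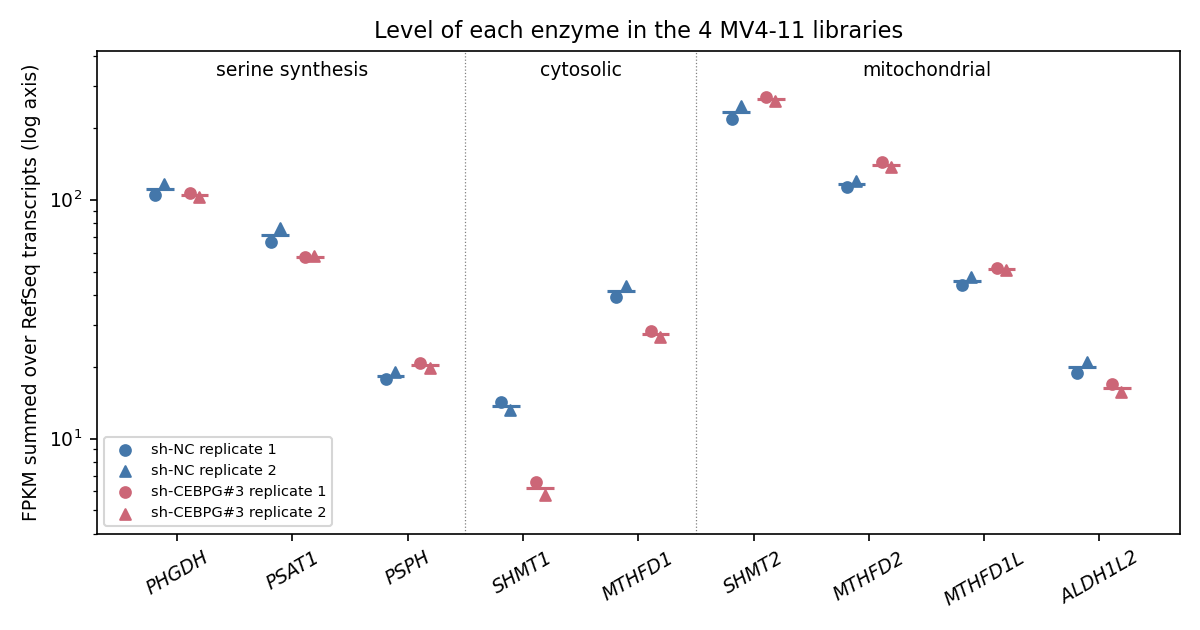
FPKM of each enzyme, summed over its RefSeq transcripts, on a log axis. Circles and triangles are replicates 1 and 2, horizontal lines the means of 2 libraries (blue sh-NC, red sh-CEBPG#3). The drop of *SHMT1* from a mean of 13.7 to 6.18 FPKM and of *MTHFD1* from 41.4 to 27.5 FPKM exceed the gaps between replicates.

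The cytosolic pair was examined first. *SHMT1*, the cytosolic serine hydroxymethyltransferase, lies on chr17:18327860-18363563 (minus strand, GRCh38, 12 exons in the canonical GENCODE transcript). It had 14.3 and 13.2 FPKM in sh-NC cells and 6.58 and 5.78 FPKM in sh-CEBPG#3 cells. Both knockdown libraries were thus below both controls. The means were 13.7 ± 0.773 FPKM and 6.18 ± 0.563 FPKM (SD, n = 2 each). Its log2 fold change on the log2(FPKM + 1) scale, which understates changes of low genes, was -1.04 (standard error 0.09, 95% interval -1.25 to -0.83, adjusted p = 2.08e-05 in limma). On this scale the log2 fold change was -0.98 without sh-NC replicate 1 and -0.96 without sh-CEBPG#3 replicate 2, both just short of 1 in size. With all 4 libraries kept, it was -1.14 when 0.1 was added to FPKM in place of 1. It was -1.15 when 0.01 was added. No fit left out a library with these smaller additions. *MTHFD1*, which interconverts the folate one-carbon forms and joins formate to tetrahydrofolate, lies on chr14:64388031-64463457 (plus strand, 28 exons). It had 39.2 and 43.6 FPKM in sh-NC cells and 28.3 and 26.7 FPKM in sh-CEBPG#3 cells. The groups did not overlap, with a log2 fold change of -0.57 (standard error 0.08, adjusted p = 0.000374 in limma). Added together, the cytosolic enzymes had 53.5 and 56.8 FPKM in sh-NC cells and 34.8 and 32.5 FPKM in sh-CEBPG#3 cells. Their share of the summed FPKM of all 9 enzymes, with non-coding transcripts counted, went from 8.40% and 8.09% to 4.97% and 4.83%.

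The bases before a RefSeq transcript start of these genes are shown because both fell. This start need not be the edge of the gene span given above, and the *MTHFD1* window lies inside that span. RefSeq promoter windows on GRCh38.p14, reaching from 250 bases before to 50 bases after a transcript start, were at hand for 6 of the 9 members. Each was searched on both strands for TGATGNAA, the core of elements that a CEBP and ATF4 pair can bind, for TGACGTCA (the cyclic AMP response element), for TTGCGCAA (a palindrome bound by CEBP dimers) and, added after the data had been seen, for CCAAT and for TTTNNCGC (a core of E2F sites). In the sequences, read along the strand of the gene, capitals mark CCAAT or its reverse complement ATTGG.
*SHMT1*, chr17:18363551-18363800, minus strand: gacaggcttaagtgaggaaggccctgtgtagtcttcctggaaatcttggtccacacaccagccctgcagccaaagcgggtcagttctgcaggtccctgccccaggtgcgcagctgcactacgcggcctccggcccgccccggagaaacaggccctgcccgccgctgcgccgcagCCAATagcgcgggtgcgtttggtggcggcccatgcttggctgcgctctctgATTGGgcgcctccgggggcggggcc
*MTHFD1*, chr14:64388103-64388352, plus strand: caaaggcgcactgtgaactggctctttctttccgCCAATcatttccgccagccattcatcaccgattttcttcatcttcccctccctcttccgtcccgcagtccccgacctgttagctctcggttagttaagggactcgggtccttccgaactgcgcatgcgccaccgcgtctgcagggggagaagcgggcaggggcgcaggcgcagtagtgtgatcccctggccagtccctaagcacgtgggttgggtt
Neither window held TGATGNAA, TGACGTCA, TTGCGCAA or TTTNNCGC, which occur in 3.62%, 1.85%, 0.151% and 6.89% of all 35116 windows. CCAAT was found 76 bases before the start of *SHMT1*, with ATTGG at 25 bases before it. In *MTHFD1* CCAAT was found 216 bases before the start, with ATTGG 35 bases after it, beyond the bases printed. All 6 members with a window held CCAAT in a window, whether they fell or not. Counted by window rather than by gene, 34.6% of all windows held it. These matches describe letters in a window and do not show that a protein was bound.

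The serine synthesis enzymes changed less. *PHGDH*, which catalyzes the first step (chr1:119648411-119744218, plus strand), had 105 and 116 FPKM in sh-NC cells and 106 and 103 FPKM in sh-CEBPG#3 cells. It was the one member whose groups overlapped. The log2 fold change was -0.08 with a 95% interval from -0.24 to 0.09 (adjusted p = 0.45 in limma). *PSAT1*, the aminotransferase of the second step (chr9:78297125-78330093, plus strand), had 66.7 and 76.1 FPKM in sh-NC cells and 57.4 and 57.8 FPKM in sh-CEBPG#3 cells. It fell by 0.30 on the log2 scale (standard error 0.08, adjusted p = 0.0127 in limma). The call was lost without sh-CEBPG#3 replicate 1 (adjusted p = 0.0805) and without sh-CEBPG#3 replicate 2 (adjusted p = 0.0681). *PSPH*, the phosphatase of the last step (chr7:56011051-56051604, minus strand), had 17.8 and 18.9 FPKM in sh-NC cells and 20.8 and 19.7 FPKM in sh-CEBPG#3 cells. Both knockdown libraries were higher, but its log2 fold change of 0.13 (95% interval -0.04 to 0.31, adjusted p = 0.203 in limma) did not pass the test. The branch as a whole held 189 and 211 FPKM in sh-NC cells and 184 and 180.5 FPKM in sh-CEBPG#3 cells.

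Of the mitochondrial enzymes, *MTHFD2* passed the test as higher, and the differences between its change and those of *SHMT2* and *MTHFD1L* were not tested. *MTHFD2*, the mitochondrial methylenetetrahydrofolate dehydrogenase and cyclohydrolase (chr2:74186172-74217565, plus strand), had 113 and 120.0 FPKM in sh-NC cells and 144 and 136 FPKM in sh-CEBPG#3 cells. The increase on the log2 scale was 0.26 (standard error 0.07, adjusted p = 0.0139 in limma). The call was lost without sh-CEBPG#3 replicate 1 (adjusted p = 0.179) and without sh-CEBPG#3 replicate 2 (adjusted p = 0.0724). *SHMT2*, the mitochondrial serine hydroxymethyltransferase (chr12:57229573-57234935, plus strand), had 218 and 246 FPKM in sh-NC cells and 269 and 258 FPKM in sh-CEBPG#3 cells. *MTHFD1L*, the mitochondrial formate-releasing synthetase (chr6:150865679-151101887, plus strand), had 44.1 and 47.5 FPKM in sh-NC cells and 51.6 and 50.5 FPKM in sh-CEBPG#3 cells. For both genes the knockdown libraries lay above both controls. The log2 fold change was 0.19 for *SHMT2* (95% interval 0.01 to 0.36, adjusted p = 0.0782 in limma) and 0.15 for *MTHFD1L* (95% interval -0.01 to 0.32, adjusted p = 0.12). Both passed 0.05 without sh-NC replicate 2, with adjusted p = 0.00135 and adjusted p = 0.0484, and with the FPKM totals of the libraries made equal, with adjusted p = 0.0163 and adjusted p = 0.0298.

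*ALDH1L2*, the mitochondrial formyltetrahydrofolate dehydrogenase (chr12:105019784-105107643, minus strand), went the other way. It had 18.7 and 21.0 FPKM in sh-NC cells and 16.9 and 15.7 FPKM in sh-CEBPG#3 cells. It fell by 0.27 on the log2 scale (standard error 0.09, adjusted p = 0.0292 in limma). The call was lost without sh-NC replicate 2 (adjusted p = 0.14) and without sh-CEBPG#3 replicate 2 (adjusted p = 0.165). The summed FPKM of the 4 mitochondrial enzymes was 394 and 434 in sh-NC cells and 481 and 460.1 in sh-CEBPG#3 cells. They made up 61.9% and 61.8% of the summed FPKM of the 9 enzymes in sh-NC cells and 68.7% and 68.4% in sh-CEBPG#3 cells. These sums and shares count non-coding transcripts, mainly of *SHMT2* and *MTHFD2*, and do not give the share of protein-coding mRNA. In *SHMT2*, non-coding transcripts held 69.0% and 64.1% of the FPKM in sh-NC cells and 65.2% and 67.7% in sh-CEBPG#3 cells. The groups of 8 of 9 members did not overlap, 4 lower and 4 higher, against 71.7% of all genes tested (40.2% lower and 31.5% higher).

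**Figure D2:**
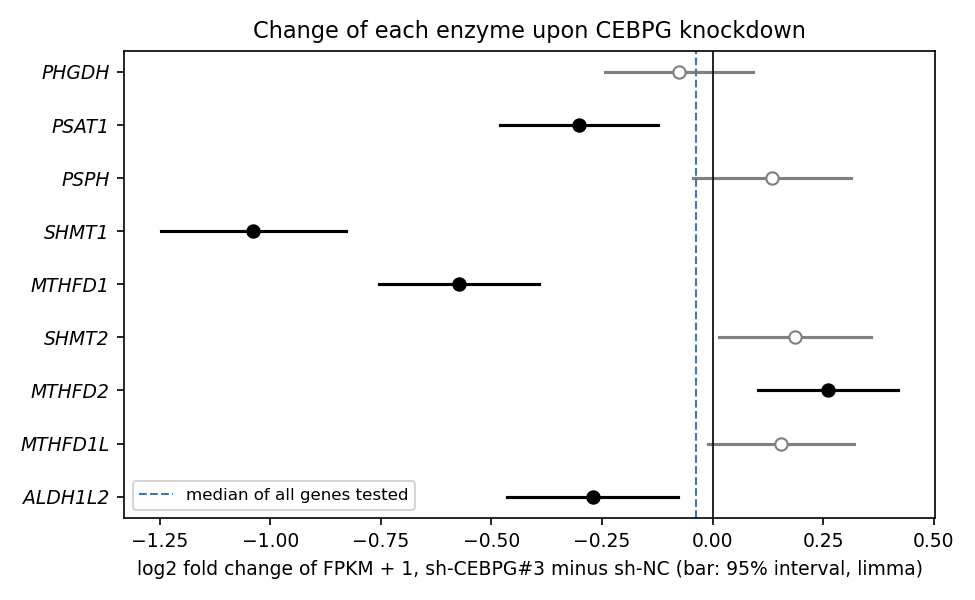
Log2 fold change of FPKM + 1 of each enzyme, sh-CEBPG#3 minus sh-NC, with 95% intervals from limma (2 libraries per group). Filled points passed an adjusted p under 0.05 and open points did not, and the dashed line is the median of all genes tested at -0.04. The interval of *SHMT1* (-1.25 to -0.83) lies below those of the other 8, and that of *MTHFD1* (-0.75 to -0.39) overlaps those of *PSAT1* and *ALDH1L2*.

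Windows are shown for comparison for *MTHFD2*, the member that rose, and *MTHFD1L*, the only one of the 6 members with TGATGNAA in a window. Both lie before a RefSeq transcript start and inside the gene spans given above. Capitals mark CCAAT and, in *MTHFD1L*, TGATGCAA.
*MTHFD2*, chr2:74198365-74198614, plus strand: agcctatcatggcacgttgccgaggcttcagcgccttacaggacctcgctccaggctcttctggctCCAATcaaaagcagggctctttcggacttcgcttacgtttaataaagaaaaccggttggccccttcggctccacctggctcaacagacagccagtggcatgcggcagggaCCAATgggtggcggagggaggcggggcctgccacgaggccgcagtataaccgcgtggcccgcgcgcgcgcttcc
*MTHFD1L*, chr6:150866236-150866485, plus strand: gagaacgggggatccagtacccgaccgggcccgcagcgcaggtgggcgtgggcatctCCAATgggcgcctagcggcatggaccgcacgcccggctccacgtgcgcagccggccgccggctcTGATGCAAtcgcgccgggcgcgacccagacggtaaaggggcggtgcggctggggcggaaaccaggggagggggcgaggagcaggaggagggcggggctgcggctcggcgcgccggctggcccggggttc
TGATGCAA lies on chr6:150866357-150866364, which is 129 bases before the start that this window refers to. Of the 4 annotated windows of *MTHFD1L*, 3 overlap there and hold the same match, in 1 of them after the start. *MTHFD1L* is 1 of the 4 members that did not pass the test, at 44.1 to 51.6 FPKM in all libraries.

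The ratio of mitochondrial to cytosolic enzyme transcripts was compared within each library, where factors that scale a whole library cancel. *SHMT2* exceeded *SHMT1* 15.3-fold and 18.6-fold in sh-NC cells and 40.9-fold and 44.6-fold in sh-CEBPG#3 cells. The ratio of *MTHFD2* to *MTHFD1* was 2.89 and 2.75 in sh-NC cells and 5.10 and 5.11 in sh-CEBPG#3 cells. *MTHFD1L* to *MTHFD1* was 1.12 and 1.09 against 1.83 and 1.89. In all 3 pairs both knockdown libraries lay above both controls, with the mean log2 ratio higher by 1.34, 0.85 and 0.75. An exact two-sided permutation test gave p = 0.333 for each of these 3 ratios, the smallest value that 2 libraries against 2 allow. From protein-coding transcripts alone, *SHMT2* exceeded *SHMT1* 4.72-fold and 6.69-fold in sh-NC cells and 14.2-fold and 14.4-fold in sh-CEBPG#3 cells, and *MTHFD2* to *MTHFD1* was 2.00 and 1.85 against 3.09 and 3.70. These ratios are lower than those of all transcripts, but their log2 differences of 1.35 and 0.81 are similar in size. Most of the difference came from the cytosolic member, since *SHMT1* changed by -1.04 and *SHMT2* by 0.19 on the log2 scale.

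The RefSeq transcripts behind these sums were then listed. The 9 genes have 24 transcripts with a value, 18 protein coding and 6 non-coding. *PHGDH*, *PSPH* and *MTHFD1* are listed with a single transcript each. In *SHMT1*, a decrease was called for NM_004169, which had 11.9 and 8.72 FPKM in sh-NC cells and 3.93 and 2.91 FPKM in sh-CEBPG#3 cells (log2 fold change -1.35, adjusted p = 0.04 in limma over all transcripts tested). NM_148918 had 2.04 and 4.47 FPKM in sh-NC cells and 2.12 and 2.08 FPKM in sh-CEBPG#3 cells (adjusted p = 0.482). The remaining NM_001281786 had 0.343 and 0 FPKM in sh-NC cells and 0.526 and 0.789 FPKM in sh-CEBPG#3 cells. Between the control libraries NM_004169 and NM_148918 differed in opposite directions, while the sum over all 3 transcripts was 14.3 and 13.2 FPKM.

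*SHMT2* is listed with 9 transcripts. The non-coding NR_029417 was the most abundant, with 126 and 109 FPKM in sh-NC cells and 140.1 and 160.3 FPKM in sh-CEBPG#3 cells. The protein-coding NM_005412 had 59.3 and 58.5 FPKM in sh-NC cells and 70.6 and 74.1 FPKM in sh-CEBPG#3 cells (log2 fold change 0.29, adjusted p = 0.0608 in limma). Non-coding transcripts together took 69.0% and 64.1% of the *SHMT2* FPKM in sh-NC cells and 65.2% and 67.7% in sh-CEBPG#3 cells, so the height of *SHMT2* among the enzymes rests mainly on them. Its protein-coding transcripts alone added up to 67.4 and 88.2 FPKM in sh-NC cells and 93.6 and 83.1 FPKM in sh-CEBPG#3 cells, which overlap. One minor coding transcript, NM_001166356, had 2.57 and 3.14 FPKM in sh-NC cells and is listed at 0 in both sh-CEBPG#3 libraries. *MTHFD2* also had a non-coding transcript, NR_027405, at 34.9 and 39.5 FPKM in sh-NC cells and 56.8 and 37.5 FPKM in sh-CEBPG#3 cells. Its coding transcript NM_006636 had 78.6 and 80.5 FPKM in sh-NC cells and 87.2 and 98.9 FPKM in sh-CEBPG#3 cells (log2 fold change 0.22, adjusted p = 0.178 in limma). *MTHFD1L* was split almost evenly between NM_001242767, with 20.0 and 26.2 FPKM in sh-NC cells and 26.6 and 25.5 FPKM in sh-CEBPG#3 cells, and NM_015440, with 19.4 to 22.4 FPKM over the 4 libraries. *PSAT1* came mainly from NM_058179 (60.7 and 72.0 against 55.1 and 55.9 FPKM), and its minor NM_021154 had 5.99 and 4.11 FPKM in sh-NC cells and 2.28 and 1.94 FPKM in sh-CEBPG#3 cells (log2 fold change -0.94, adjusted p = 0.0711 in limma). *ALDH1L2* came almost wholly from NM_001034173, at 96.8% to 99.9% of its FPKM. The reads of overlapping transcripts were divided by the authors' software, and how it did so was not tested.

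**Figure D3:**
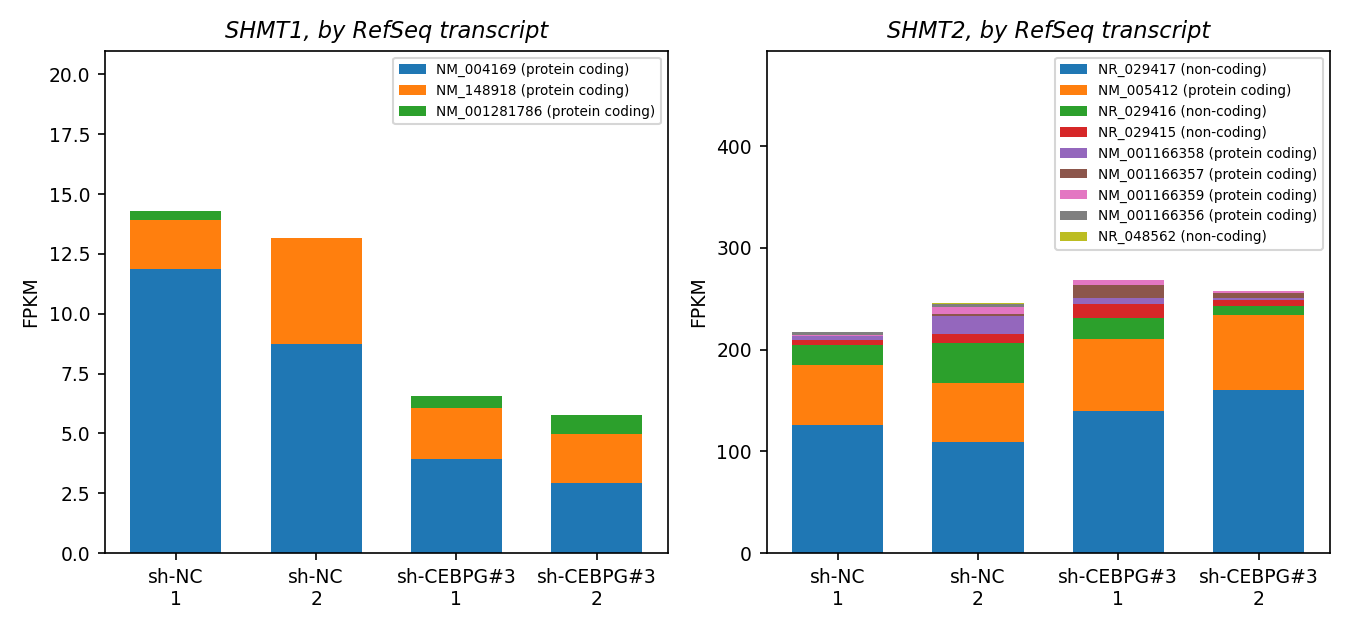
FPKM of each RefSeq transcript of *SHMT1* (left) and *SHMT2* (right), stacked per library on axes from 0. The *SHMT1* stack shrinks from 14.3 and 13.2 FPKM to 6.58 and 5.78 FPKM with the loss mainly in NM_004169, and the *SHMT2* stack is led by the non-coding NR_029417 in all 4 libraries.

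Genes around these enzymes were counted from lists of related functions. Among 14 genes of serine and glycine breakdown and transport, 13 were tested, 2 fell (15.4%) and 3 rose (23.1%), near the 23.8% and 18.5% of all genes tested. *SLC1A5*, a transporter of neutral amino acids including glutamine and serine, had 79.7 and 86.3 FPKM in sh-NC cells and 46.0 and 43.3 FPKM in sh-CEBPG#3 cells (log2 fold change -0.88, adjusted p = 1.52e-05 in limma). *GCSH*, the carrier protein of the glycine cleavage system, also fell (-0.40, adjusted p = 0.0216), but without sh-CEBPG#3 replicate 2 it was -0.22 (adjusted p = 0.167), and 3 of 9 other alternatives ended the call. *SDS*, a serine dehydratase, rose from 0.234 and 0.279 FPKM to 3.48 and 3.46 FPKM (log2 fold change 1.83, adjusted p = 2.81e-06), and the related *SDSL* (0.72) and *DLD*, a subunit shared by glycine cleavage and the pyruvate dehydrogenase complex (0.38), rose as well. The call of *DLD* was lost without sh-CEBPG#3 replicate 1 (adjusted p = 0.0607). With the most abundant transcript *SDSL* (adjusted p = 0.101 in limma) and *DLD* (adjusted p = 0.181) lost their calls. *GLDC*, the decarboxylase of glycine cleavage, was at most at 0.0259 FPKM in all libraries. The mitochondrial serine carriers *SFXN1*, *SFXN2* and *SFXN3* did not pass the test, with log2 fold changes of 0.05, -0.12 and -0.08.

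Of 20 genes of folate uptake and the folate cycle, 13 were tested, of which 4 fell and 0 rose in limma (5 and 0 at an unadjusted p under 0.05). The 30.8% that fell is near the 23.8% of all genes tested, and 0% rose against 18.5%. The 4 were *TYMS*, the thymidylate synthase, *GGH* and *MTHFS* of folate turnover, and *ATIC* of purine synthesis. *TYMS* had 85.9 and 94.0 FPKM in sh-NC cells and 62.4 and 60.6 FPKM in sh-CEBPG#3 cells (log2 fold change -0.54, adjusted p = 0.000319 in limma). *GGH* had 31.3 and 32.0 FPKM in sh-NC cells and 24.5 and 23.0 FPKM in sh-CEBPG#3 cells (-0.40), and *ATIC* changed by -0.36. *ATIC* lost its call without sh-CEBPG#3 replicate 2 (adjusted p = 0.0506 in limma). The call of *MTHFS* (-0.31, adjusted p = 0.0404) was lost without sh-NC replicate 1 (adjusted p = 0.0922), sh-NC replicate 2 (adjusted p = 0.113) or sh-CEBPG#3 replicate 1 (adjusted p = 0.176). The isozymes of the members were scarce, with *MTHFD2L* at 0.445 to 0.970 FPKM and *ALDH1L1* listed at 0 in both sh-NC libraries and at most 0.109 FPKM in sh-CEBPG#3 cells.

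In the methionine cycle and transsulfuration, 11 of 14 genes were tested, of which 6 fell (54.5%, against 23.8% of all genes tested) and 2 rose (18.2%, against 18.5%). *MTR*, the methionine synthase that takes its methyl group from folate, had 8.16 and 8.36 FPKM in sh-NC cells and 4.45 and 3.89 FPKM in sh-CEBPG#3 cells (log2 fold change -0.84, adjusted p = 9.9e-05 in limma). *MTRR*, which reactivates MTR, fell by 0.45, *MTAP*, which salvages methylthioadenosine, by 0.72, and *CBS*, which joins homocysteine with serine, by 0.57 on the log2 scale. With the most abundant transcript *MTRR* (-0.41, adjusted p = 0.263 in limma) and *CBS* (-0.35, adjusted p = 0.731) lost their calls. *CBS* also lost its call with no filter (adjusted p = 0.0522). *GNMT*, glycine N-methyltransferase, rose from 0.582 and 0.319 FPKM to 1.39 and 0.881 FPKM (0.55, adjusted p = 0.0208), and *AHCY*, which splits S-adenosylhomocysteine, rose by 0.26 (adjusted p = 0.0176). *GNMT* lost its call without sh-NC replicate 2 (0.42, adjusted p = 0.0563 in limma) and without sh-CEBPG#3 replicate 1 (0.38, adjusted p = 0.132). *AHCY* lost its call without sh-CEBPG#3 replicate 1 (adjusted p = 0.134) and without sh-CEBPG#3 replicate 2 (adjusted p = 0.12), with the replicate block (adjusted p = 0.0793) and without the variance trend (adjusted p = 0.0564). The median log2 fold change was -0.22 in this list, -0.13 in the folate list and 0.02 in the serine and glycine list, against -0.04 over all genes tested.

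No decrease was called among the 17 genes listed for the ATF4 response. That count holds for this list only. Genes counted in another list, such as *SLC1A5*, which fell, were not on it, and neither were the serine synthesis and mitochondrial enzymes. Of these enzymes, *PSAT1* and *ALDH1L2* fell, *MTHFD2* rose, and *PHGDH*, *PSPH*, *SHMT2* and *MTHFD1L* did not pass the test. Of 17 tested, 0 were lower in limma, against 23.8% of all genes tested, and 4 rose. The numbers were the same at an unadjusted p under 0.05, and the median log2 fold change was 0.06. The 23.5% that rose is near the 18.5% of all genes tested. *ATF4* itself had 259 and 269 FPKM in sh-NC cells and 269 and 256 FPKM in sh-CEBPG#3 cells (log2 fold change -0.01, 95% interval -0.16 to 0.14, adjusted p = 0.924 in limma). *ASNS*, asparagine synthetase, had 55.8 and 60.6 FPKM in sh-NC cells and 53.0 and 52.1 FPKM in sh-CEBPG#3 cells (adjusted p = 0.144). Those that rose were *NUPR1* (0.72) and *CEBPB* (0.70), both regulators of transcription, *ATF3* (0.41), a bZIP factor, and *CHAC1* (0.28), which degrades glutathione. With the most abundant transcript *NUPR1* (adjusted p = 0.0591 in limma), *ATF3* (adjusted p = 0.139) and *CHAC1* (adjusted p = 0.119) lost their calls. Without sh-CEBPG#3 replicate 1, *ATF3* (adjusted p = 0.053 in limma) and *CHAC1* (adjusted p = 0.113) lost their calls.

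Most genes listed for S phase and proliferation fell. Of 16 tested, 14 fell and 0 rose in limma (15 and 1 at an unadjusted p under 0.05). This is 87.5% lower and 0% higher, against 23.8% and 18.5% of all genes tested. The median log2 fold change of these genes was -0.77, with a range from -1.15 to 0.18. Their summed level was 732 and 794 FPKM in sh-NC cells and 453 and 432 FPKM in sh-CEBPG#3 cells. *MCM6* (-1.15), *MCM4* (-1.04), *MCM3* (-0.995) and *MCM2* (-0.98), subunits of the replicative helicase, fell most. *RRM2*, a subunit of ribonucleotide reductase, had 24.1 and 25.3 FPKM in sh-NC cells and 28.8 and 27.2 FPKM in sh-CEBPG#3 cells (adjusted p = 0.0914 in limma), and *CCNE2* (adjusted p = 0.0592) also did not pass. The part of proliferation in the decrease of *SHMT1*, *MTHFD1* and *TYMS* was not tested.

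**Figure D4:**
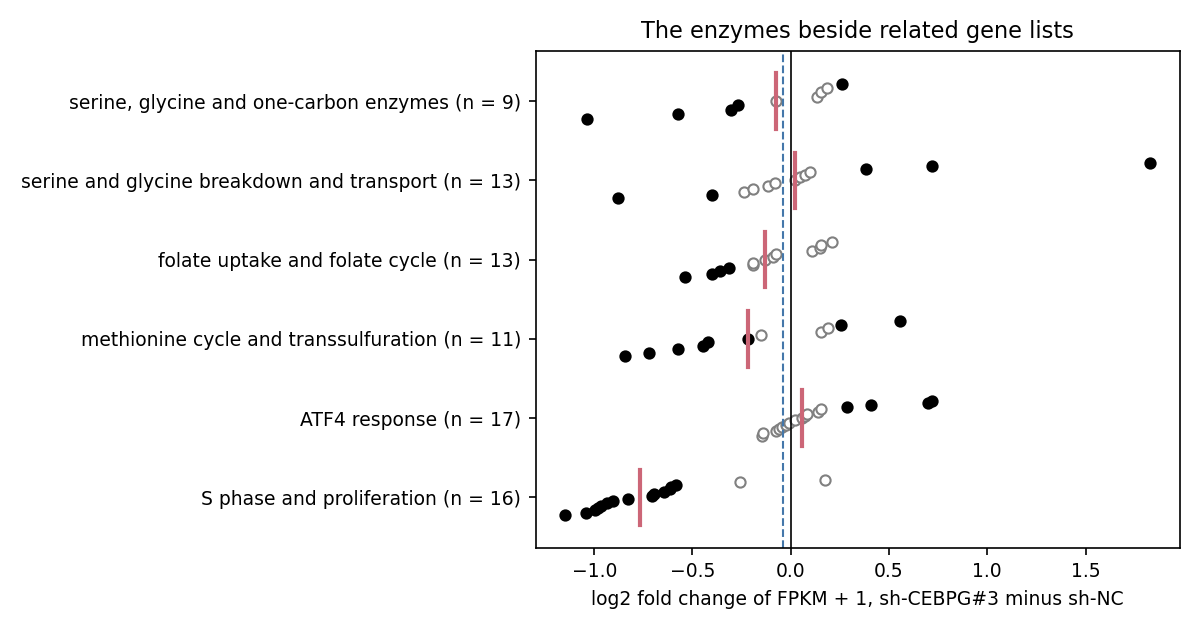
Log2 fold change of FPKM + 1 (sh-CEBPG#3 minus sh-NC) of each gene tested, in rows by gene list. Filled points passed an adjusted p under 0.05 in limma, red bars are list medians and the dashed line is the median of all genes tested (-0.04). The S phase genes lie to the left with a median of -0.77, and the ATF4 response genes have a median of 0.06.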

How the data were processed

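Total RNA was extracted and libraries were made with a TruSeq kit (labels). The MV4-11 libraries (2 sh-NC, 2 sh-CEBPG#3) were grouped by their sample titles. The deposited table holds FPKM per RefSeq transcript and library, made by the authors from filtered reads mapped to hg38 with HISAT2 2.0.5 (submitters' processing notes). The annotation version and the FPKM program are not given in the sources used here. FPKM was summed per gene symbol, and genes averaging 0.5 FPKM or more were compared as log2(FPKM + 1) in limma 3.58.1 under R 4.3.3 (lmFit and a trended eBayes), with Benjamini-Hochberg adjustment over all genes tested. Tests for counts, which had been planned, were left out because the values are FPKM. Of 1027 transcripts under 0.06 FPKM in both sh-NC libraries, at most 0.974% shared a ratio, so no steps of whole reads were seen. The procedure was also tested on simulated data with independent noise and no shared infection or batch, so that test does not bear on these. The members and lists were chosen with earlier results of these data known. For 2 genes of the lists, values are not reported here and the lists were counted without them. All members are named, with *CEBPG*, *ATF4*, 2 isozymes and up to 4 called genes per direction and list. *GLDC*, *SFXN1*, *SFXN2*, *SFXN3*, *ASNS*, *RRM2* and *CCNE2* were named after their values were seen. Alternatives were other pseudocounts, filters and normalizations, the replicate number as a block, no variance trend, the most abundant transcript of a gene, and each library left out. Gene positions come from GENCODE on GRCh38 and promoter sequences from RefSeq on GRCh38.p14.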

Additional observations from a re-analysis of the deposited data

How the results depend on the processing

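*SHMT1* and *MTHFD1* were lower at an adjusted p under 0.05 in limma in all 9 alternatives and in the 4 fits without a library, with log2 fold changes of -1.35 to -0.96 and -0.65 to -0.50. No member changed direction. The other calls depended on the setting. Members called lower numbered 2 in place of 4 with no filter and 2 with the most abundant transcript, and 2 to 4 with a library left out. Members called higher numbered 4 in place of 1 with quantile normalization, 3 with equal totals, 0 with the replicate block, 0 with the most abundant transcript, and 0 to 3 with a library left out. On the log2(FPKM + 1) scale, the number past a log2 change of 1 was 0 to 1 with a library left out. With quantile normalization *PHGDH* (-0.18), *PSPH* (0.16), *SHMT2* (0.16) and *MTHFD1L* (0.12) passed, and with equal totals *SHMT2* (0.16) and *MTHFD1L* (0.13) did. With no filter *PSAT1* (-0.30) and *ALDH1L2* (-0.27) no longer passed, and without the trend *ALDH1L2* (-0.27) did not. With the most abundant transcript *PSAT1* (-0.25), *MTHFD2* (0.22) and *ALDH1L2* (-0.29) no longer passed. With a library left out the log2 fold changes ranged from -0.15 to -0.0021 for *PHGDH*, -0.40 to -0.21 for *PSAT1*, 0.09 to 0.18 for *PSPH*, 0.10 to 0.27 for *SHMT2*, 0.22 to 0.30 for *MTHFD2*, 0.10 to 0.21 for *MTHFD1L* and -0.35 to -0.19 for *ALDH1L2*. There the lone library of a group is assumed to vary like the other group. Why these calls moved is unknown (the cause was not tested).

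The deviations of libraries with the same replicate number were correlated at 0.061 over all genes tested. The sources do not say what the number marks, and a correlation over all genes cannot exclude a shared batch. With the replicate block *MTHFD2* (0.26, adjusted p = 0.0725 in limma) and *ALDH1L2* (-0.27, adjusted p = 0.0589) lost their calls, and 4761 of all genes passed in place of 5128. With the most abundant transcript 1285 genes passed. Of 26 named genes outside the members, *ATF4* (-0.01) was 0.034 with the most abundant transcript and -0.047 to 0.028 with a library left out (above 0 without sh-NC replicate 2 and without sh-CEBPG#3 replicate 2), and *MTHFD2L* (-0.09) was -0.31 to 0.13 with a library left out (above 0 without sh-NC replicate 1), with no call in any of them. *MTHFD2L* and *GNMT* have no value under the filter of 1 FPKM. Over all pairs of a named gene outside the members and an alternative fit, 33 lost a call made in the main fit. The tests for counts were not run, since FPKM holds no counts, and the depth behind low values is unknown.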
